A study of Mus musculus with 5 samples.

Results

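The 7 genes described here form the core of MHC class II antigen presentation in the mouse, and they were taken by symbol from the 31053 genes of a single-cell RNA sequencing data set of mouse hearts. They are H2-Aa (ENSMUSG00000036594), H2-Ab1 (ENSMUSG00000073421), H2-Eb1 (ENSMUSG00000060586), Cd74 (ENSMUSG00000024610), Ciita (ENSMUSG00000022504), H2-DMa (ENSMUSG00000037649) and H2-DMb1 (ENSMUSG00000079547), and all 7 had counts in every library. The study compared hearts of Ctla4+/+Pdcd1-/- mice (control, 4 mice) with hearts of Ctla4+/-Pdcd1-/- mice (disease, 10 mice), which the design text names as having myocarditis of the kind seen under immune checkpoint inhibitors. All groups therefore lacked Pdcd1, which encodes the checkpoint receptor PD-1, and no group with an intact Pdcd1 was analysed here. Hearts were digested with collagenase I, DNase I and hyaluronidase and pooled, and live nucleated cells were sorted as DRAQ5-positive and DAPI-negative into 5 droplet libraries of the 10x Genomics 5′ chemistry. The control mice gave replicates 1 and 2, and the disease mice gave replicates 3, 4 and 5. The mice behind each library and their strain, age, sex and batch are not given in the sources used here, so p-values measure the spread between these libraries, which may in part be technical. The genotype labels of replicates 2 and 4 read Pdcd2-/- and that of replicate 5 reads Pdcd3-/-, and the sort labels count from DRAQ5 to DRAQ9 over the libraries. The design text gives Pdcd1-/- and DRAQ5 throughout and was followed.

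MHC class II molecules present peptides from endocytosed protein to CD4 T cells. H2-Aa and H2-Ab1 encode the alpha and beta chains of I-A, H2-Eb1 encodes the beta chain of I-E, and Cd74 encodes the invariant chain, which occupies the peptide groove and guides new class II molecules to the endosome. There, H2-DM, a pair of chains encoded by H2-DMa and H2-DMb1, releases the remnant of the invariant chain and edits the bound peptides. Ciita encodes the coactivator that switches on this gene set, constitutively in dendritic cells and B cells and in response to interferon-gamma in many other cells. Macrophages, dendritic cells and B cells are the classical presenting cells of the heart, whereas endothelial cells and fibroblasts are known for class II expression mainly under interferon-gamma.

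Of the 7 genes, 5 lie within 197 kb of chromosome 17 (GRCm38, GENCODE M21), and Ciita lies on chromosome 16 at chr16:10480059-10528418. Along chromosome 17 the order is H2-DMa (chr17:34119541-34139101), H2-DMb1 (chr17:34153072-34160230), H2-Ab1 (chr17:34257689-34269419), H2-Aa (chr17:34282744-34287823) and H2-Eb1 (chr17:34305867-34316674), with H2-Aa on the minus strand. Promoters are shown because class II genes are known to share a compact X and Y box module on which CIITA is recruited, and because these genes had a common distribution over cell classes. RefSeq (GRCm38.p6) gave windows from 250 bases before to 50 after the start for 4 of the 7 genes. The 4 motifs searched on both strands were AACNGATG for the X1 core, TGATG for the X2 core (these letters also end AACTGATG, an X1 match), ATTGG for the Y box core and the palindrome TGACGTCA. In the sequences, written 5′ to 3′ on the gene's strand, capitals mark AACNGATG, the palindrome and ATTGG, which is written CCAAT where it lies on the other strand.
H2-Eb1, chr17:34305617-34305916, plus strand: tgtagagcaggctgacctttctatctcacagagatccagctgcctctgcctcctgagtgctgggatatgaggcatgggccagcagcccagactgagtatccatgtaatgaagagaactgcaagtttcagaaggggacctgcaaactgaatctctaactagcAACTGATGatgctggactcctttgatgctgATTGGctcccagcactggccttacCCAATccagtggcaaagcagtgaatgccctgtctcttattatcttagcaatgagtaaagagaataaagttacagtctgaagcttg
H2-Aa, chr17:34287774-34288073, minus strand: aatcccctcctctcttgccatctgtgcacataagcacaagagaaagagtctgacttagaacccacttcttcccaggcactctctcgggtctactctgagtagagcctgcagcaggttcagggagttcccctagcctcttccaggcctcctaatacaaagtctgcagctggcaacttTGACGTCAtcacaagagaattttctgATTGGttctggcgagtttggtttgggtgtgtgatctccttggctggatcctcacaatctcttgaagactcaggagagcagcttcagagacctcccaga
H2-DMb1, chr17:34152941-34153240, plus strand: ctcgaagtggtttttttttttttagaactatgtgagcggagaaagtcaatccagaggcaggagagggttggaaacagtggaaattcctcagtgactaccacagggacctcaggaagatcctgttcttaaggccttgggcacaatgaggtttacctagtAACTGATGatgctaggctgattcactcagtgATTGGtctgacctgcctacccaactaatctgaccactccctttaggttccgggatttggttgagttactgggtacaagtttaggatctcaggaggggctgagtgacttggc
H2-DMb2, chr17:34144999-34145298, plus strand: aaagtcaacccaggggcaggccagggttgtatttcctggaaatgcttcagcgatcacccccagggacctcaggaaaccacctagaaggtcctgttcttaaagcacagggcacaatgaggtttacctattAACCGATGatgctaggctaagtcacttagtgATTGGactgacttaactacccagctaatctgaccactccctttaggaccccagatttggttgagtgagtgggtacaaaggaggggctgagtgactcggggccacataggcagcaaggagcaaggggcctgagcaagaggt
H2-DMb2 is the neighbouring paralog of H2-DMb1 and is shown for comparison with it. AACNGATG began 89 bases before the start in H2-Eb1, 92 in H2-DMb1 and 121 in H2-DMb2, and ATTGG followed at 59, 61 and 90 bases before it. In H2-Aa, TGACGTCA began 74 and ATTGG 48 bases before the start, and AACNGATG was not found. Neither of the windows listed for H2-DMa held AACNGATG, and one of them held ATTGG 198 bases before its start. Among all 32851 RefSeq promoter windows of that length, 2.32% held AACNGATG, 39.3% TGATG, 37.4% ATTGG and 1.79% TGACGTCA. These matches describe letters in a window and are not evidence of binding.

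The 5 libraries held 24991704 to 55053988 UMIs each, and 37202 of 47319 barcodes were retained, with a median of 3366 to 4540 UMIs per barcode. Barcodes were assigned to a gate by the number of distinct marker genes with a UMI, and none of the 7 genes was a marker. This gave 3561 macrophage, 183 dendritic, 899 B cell, 11869 endothelial and 8955 fibroblast barcodes, and 3740 T cell and 182 mural barcodes served as classes not expected to express class II genes. A neutrophil gate held 184 barcodes and is set beside them in the shares of barcodes with class II UMIs. A further 6360 barcodes (17.1%) passed several gates and were left out. Because gates were defined by these markers, each had its own markers far above those of other classes, which is no independent check of identity. Macrophage markers, for example, were at 18581 to 24818 CPM (the level unit explained below) in the macrophage gate against 109 to 348 in the endothelial gate. The dendritic list was also at 861 to 1163 CPM in the B cell gate. Library pairs shared 86 to 161 barcode strings, of which 50 to 98 (0.895 to 1.47% of the smaller library) were retained in both. Disease replicate 4 stood apart, with T cells at 24.3% of its retained barcodes against 2.08 to 7.78% in the other 4 libraries. In T cells neither targeted gene was called between the genotypes, with log2 fold changes of 0.83 ± 0.821 (SE) for Ctla4 (adjusted p = 0.651, edgeR quasi-likelihood test) and 0.94 ± 0.753 for Pdcd1 (adjusted p = 0.575). The deleted part of either gene is not given in the sources used here, so these UMIs may come from outside it and do not check the labels. Levels below are CPM, the UMIs of a gene in a gate and library divided by all UMIs of that gate and library, times 1000000. Values of the 5 libraries are given in the order control replicates 1 and 2, then disease replicates 3, 4 and 5.

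The 7 genes separated the presenting cells from the other classes in every library. In the median library dendritic barcodes had the highest level of 6 of the 7 genes, all but Ciita, whose highest median was in macrophages. Endothelial cells and fibroblasts were below macrophages for all 7 genes in every library, and H2-DMb1 was low in B cells. Comparisons between gates used edgeR with the library as a block, with p-values adjusted over all genes by the Benjamini-Hochberg method, and the dendritic comparisons used 4 libraries because control replicate 2 had only 8 dendritic barcodes, under the minimum of 10.

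**Figure D1:**
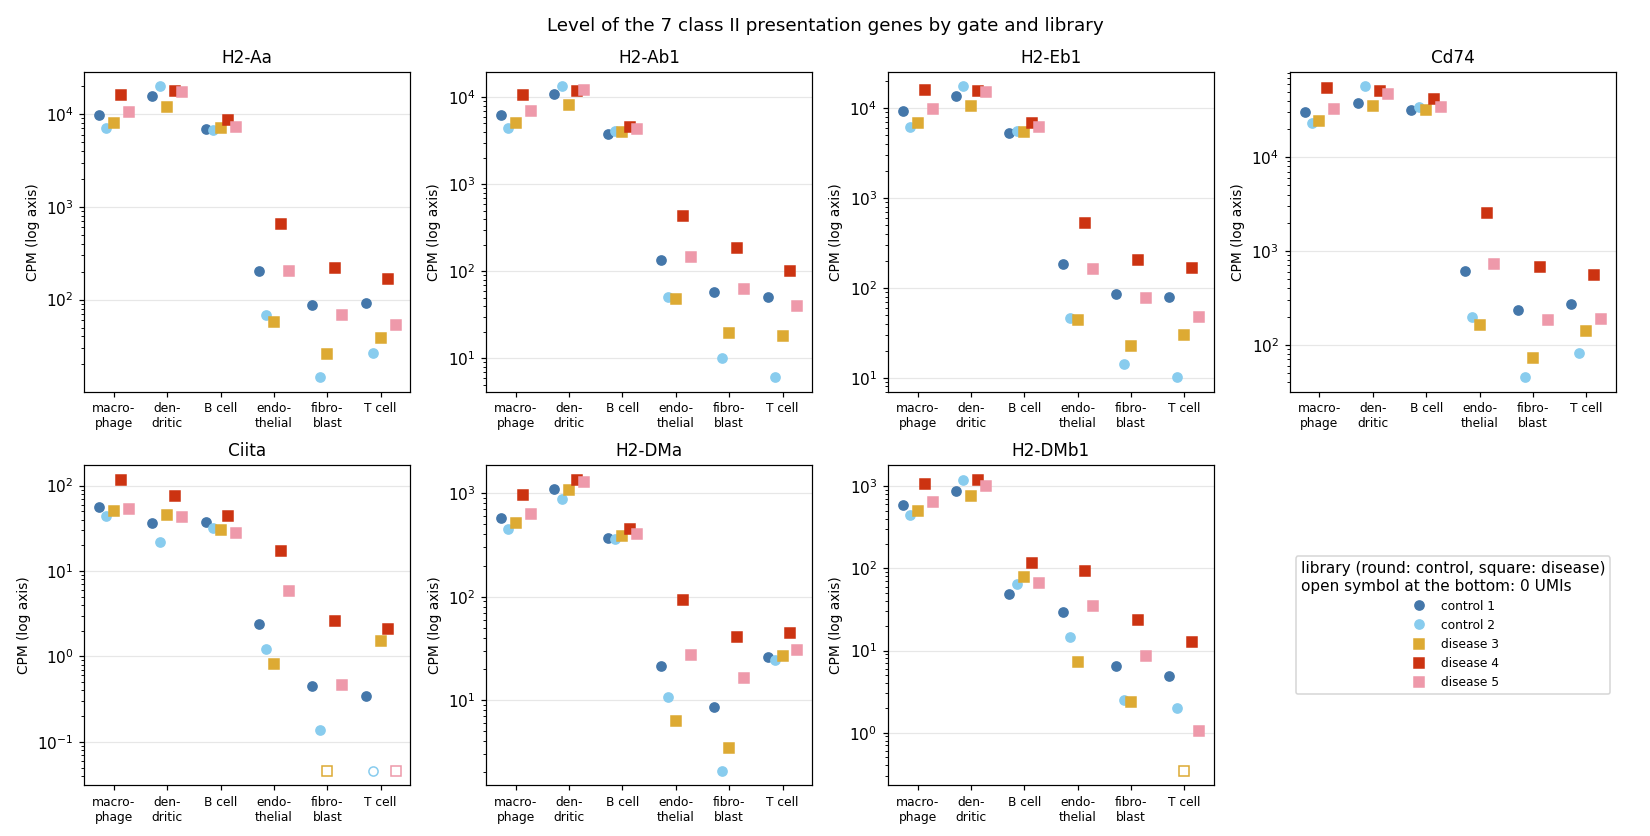
Level of each of the 7 genes in CPM (log axis) in the macrophage, dendritic, B cell, endothelial, fibroblast and T cell gates, 1 point per library. Disease replicate 4 is the highest point for all 7 genes in the macrophage, B cell, endothelial and fibroblast gates, while H2-DMb1 in B cells (48.7 to 118 CPM) sits far below its level in macrophages (442 to 1078).

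H2-Aa, the I-A alpha chain, was at 9841 and 7002 CPM in control macrophages and 7919, 15978 and 10555 in disease macrophages. In dendritic barcodes it was at 15513, 19881, 12012, 17750 and 17131 CPM, and in B cells at 6956, 6785, 7086, 8646 and 7326. Dendritic barcodes were above macrophages in 5 of 5 libraries, and B cells were the most even class, with all libraries within a narrow range. The level in macrophages was below that in dendritic barcodes (log2 ratio -0.80 ± 0.120 (SE), adjusted p = 0.000291, edgeR), in a comparison in which 44.2% of all genes were called. Macrophages were above B cells by a log2 ratio of 0.26 ± 0.102 (adjusted p = 0.0324, edgeR; 58.7% of all genes called), in 5 of 5 libraries. Dendritic barcodes exceeded B cells by a log2 ratio of 1.00 ± 0.104 (adjusted p = 4.69e-08, edgeR; 56.4% of all genes called).

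H2-Ab1, the I-A beta chain, was at 6327, 4425, 5019, 10669 and 7019 CPM in macrophages. Its level was 11007, 13323, 8084, 11645 and 11988 in dendritic barcodes and 3774, 4131, 3967, 4538 and 4371 in B cells. H2-Eb1, the I-E beta chain, was at 9357, 6250, 6792, 15854 and 9878 CPM in macrophages, 10572 to 17479 in dendritic barcodes and 5346 to 6871 in B cells. The same order of classes held for both beta chains, except that H2-Eb1 was higher in macrophages than in dendritic barcodes in disease replicate 4, where the dendritic level was 15493. Log2 ratios of macrophages over B cells were 0.46 for H2-Ab1 and 0.47 for H2-Eb1, and those of macrophages over dendritic barcodes were -0.87 and -0.70, all past the edgeR threshold. Per 100 H2-Aa UMIs there were 63.2 to 66.8 H2-Ab1 UMIs in macrophages, 65.6 to 71.0 in dendritic barcodes, 52.5 to 60.9 in B cells and 66.7 to 91.1 in fibroblasts. For H2-Eb1 there were 85.8 to 99.2 in macrophages, a median of 87.7 in dendritic barcodes, 76.5 to 85.0 in B cells and 85.6 to 111 in fibroblasts.

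Cd74, the invariant chain, was at 30629, 23066, 24451, 54227 and 32881 CPM in macrophages. B cells had 31588, 34006, 31946, 41747 and 34641, and dendritic barcodes 38292, 56868, 35458, 50725 and 47569. Unlike the classical chains, Cd74 was lower in macrophages than in B cells in 4 of 5 libraries, all but disease replicate 4, with a log2 ratio of -0.30 ± 0.0982 (SE; adjusted p = 0.0120, edgeR). B cells carried 451 to 501 Cd74 UMIs per 100 H2-Aa UMIs, against 309 to 339 in macrophages, 247 to 295 in dendritic barcodes, 280 to 387 in endothelial cells and 267 to 312 in fibroblasts. The B cell ratio was the highest in 5 of 5 libraries against each of these 4 gates (exact sign-flip test, p = 0.0625, the smallest that 5 libraries can give, and 0.103 after adjustment over 76 ratio comparisons).

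H2-DMa, the alpha chain of the peptide editor H2-DM, was at 571, 451, 513, 958 and 627 CPM in macrophages. In dendritic barcodes it was at 1107, 888, 1089, 1356 and 1288, and in B cells at 367, 365, 384, 454 and 400. Each dendritic value was above the macrophage value of its library, and each macrophage value above the B cell value. The log2 ratio was -1.16 for macrophages over dendritic barcodes (adjusted p = 8.19e-05, edgeR) and 0.46 for macrophages over B cells (adjusted p = 0.00571).

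H2-DMb1, a beta chain of the editor, was at 587, 442, 493, 1078 and 651 CPM in macrophages. B cells had only 48.7, 64.0, 79.1, 118 and 66.7, while dendritic barcodes had 877, 1184, 770, 1202 and 997. This was the largest class difference of the 7 genes among the presenting cells, with a log2 ratio of macrophages over B cells of 2.92 ± 0.162 (SE; adjusted p = 8.28e-13, edgeR) and of dendritic barcodes over B cells of 3.54 ± 0.192 (adjusted p = 1.61e-12). Per 100 H2-DMa UMIs, B cells had 13.3 to 25.9 H2-DMb1 UMIs, against 96.1 to 113 in macrophages, 70.7 to 133 in dendritic barcodes and 101 to 139 in endothelial cells. B cells were lowest against each of these gates in 5 of 5 libraries (exact sign-flip test, p = 0.0625, adjusted 0.103).

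The other beta chain gene, H2-DMb2, was highest in B cells and lowest in macrophages among the 3 presenting classes. It was at 700 to 837 CPM in B cells, 207 to 416 in dendritic barcodes and 3.58 to 22.0 in macrophages. Of all H2-DMb1 and H2-DMb2 UMIs, H2-DMb2 made up 87.7 to 93.8% in B cells, 21.2 to 27.4% in dendritic barcodes and 0.803 to 2.69% in macrophages. Macrophages were below both B cells and dendritic barcodes in 5 of 5 libraries (exact sign-flip test, p = 0.0625, adjusted 0.0637 over 54 comparisons). The transcripts of these paralogs shared 206 of 1314 windows of 91 bases (15.7%), so the split between them is uncertain where reads fall in shared sequence. H2-Oa and H2-Ob, which encode the inhibitor of H2-DM, were likewise low in macrophages: H2-Ob was at 671 to 756 CPM in B cells and 5.82 to 18.5 in macrophages, and H2-Oa at 269 to 377 and 1.66 to 20.2. Both were lower in macrophages than in B cells and dendritic barcodes in 5 of 5 libraries, with the same p-values.

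Ciita, the coactivator, was at 56.0, 43.8, 50.7, 117 and 53.9 CPM in macrophages, from 343, 98, 122, 732 and 183 UMIs. In dendritic barcodes it was at 36.4, 21.9, 45.5, 74.95 and 42.6, and in B cells, from only 10 to 31 UMIs a library, at 37.4, 32.0, 30.0, 43.9 and 28.2. Macrophages were the highest of these classes in 5 of 5 libraries. The log2 ratio of macrophages over B cells was 0.75 ± 0.212 (SE; adjusted p = 0.00432, edgeR), whereas that over dendritic barcodes was 0.25 ± 0.184 (adjusted p = 0.299) and that of dendritic barcodes over B cells was 0.45 ± 0.262 (adjusted p = 0.151), neither of them called. Relative to H2-Aa, Ciita stood higher in endothelial cells than in the presenting cells. Endothelial cells had 1.17, 1.79, 1.43, 2.61 and 2.87 Ciita UMIs per 100 H2-Aa UMIs, against 0.511 to 0.735 in macrophages, 0.385 to 0.538 in B cells and 0.110 to 0.422 in dendritic barcodes. Endothelial cells were above each of these gates in 5 of 5 libraries (exact sign-flip test, p = 0.0625, adjusted 0.103), with endothelial ratios resting on 6 to 85 Ciita UMIs.

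**Figure D2:**
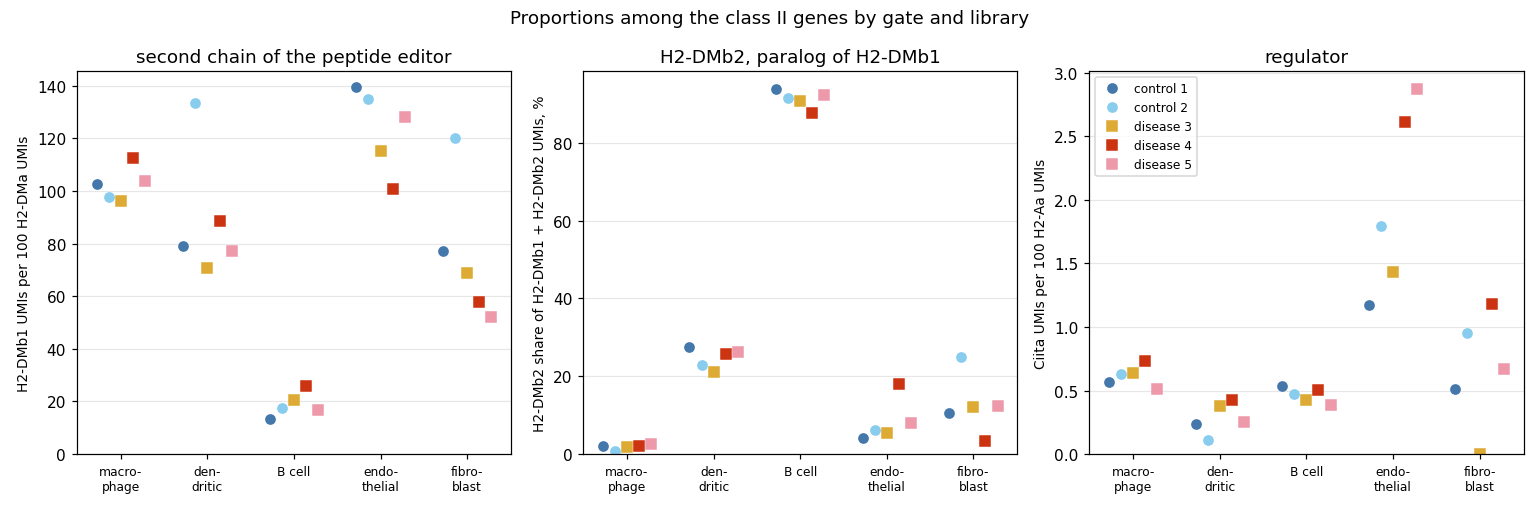
Proportions by gate, 1 point per library: H2-DMb1 UMIs per 100 H2-DMa UMIs, H2-DMb2 as a percentage of H2-DMb1 plus H2-DMb2 UMIs, and Ciita UMIs per 100 H2-Aa UMIs. B cells are low in the first (13.3 to 25.9) and high in the second (87.7 to 93.8%), and endothelial cells are above macrophages, B cells and dendritic barcodes in the third.

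Endothelial cells and fibroblasts had all 7 genes at low levels. H2-Aa was at 203, 67.8, 57.3, 652 and 205 CPM in endothelial cells and at 87.9, 14.5, 26.2, 217 and 69.0 in fibroblasts. Cd74 was at 616, 198, 160, 2521 and 722 in endothelial cells and at 235, 45.0, 72.5, 678 and 185 in fibroblasts. T cells, which served as a background for the classical chains, had H2-Aa at 92.2, 26.3, 38.9, 169 and 53.3. Disease replicate 4 was highest and control replicate 1 or disease replicate 5 next in these gates, T cells included. Endothelial cells were above T cells for H2-Aa, H2-Ab1, H2-Eb1, Cd74 and H2-DMb1, by log2 ratios of 1.13, 1.51, 1.13, 1.03 and 2.85, all called by edgeR in a comparison that called 70.4% of all genes. For H2-DMa the log2 ratio was -0.48 (adjusted p = 0.267, edgeR), and Ciita did not pass the filter on low counts in this comparison. Fibroblasts were not called against T cells for the classical chains (log2 ratios -0.27, 0.31 and 0.01, adjusted p = 0.264, 0.119 and 0.968, edgeR), were below them for Cd74 (-0.59, adjusted p = 0.0277) and H2-DMa (-1.51, adjusted p = 0.00575), and were above them for H2-DMb1 (0.91, adjusted p = 0.0298), where 74.3% of all genes were called.

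RNA of macrophages can enter droplets of other cells, so the classical chains are given beside macrophage markers on one scale, as a percentage of the macrophage level in the same library. In endothelial cells H2-Aa, H2-Ab1 and H2-Eb1 together stood at 2.04, 0.932, 0.752, 3.82 and 1.87%, and the 8 macrophage markers at 1.37, 0.586, 0.667, 1.40 and 0.806%. H2-DMb1 stood at 5.06, 3.30, 1.47, 8.60 and 5.38% and Ciita at 4.25, 2.77, 1.62, 14.5 and 10.9%. Each of these was above the marker percentage in 5 of 5 libraries, as was H2-DMa at 3.72, 2.39, 1.23, 9.61 and 4.36%. Cd74 stood at 2.01, 0.860, 0.656, 4.65 and 2.20%, above the markers in 4 of 5 libraries and just below them in disease replicate 3. In fibroblasts the classical chains stood at 0.906, 0.219, 0.345, 1.43 and 0.760% and the markers at 1.22, 0.920, 0.594, 0.740 and 0.542%, so the chains were below the markers in 3 libraries and above them in disease replicates 4 and 5. T cells had 0.868, 0.241, 0.440, 1.02 and 0.514% for the chains and 0.891, 0.229, 0.395, 0.798 and 0.429% for the markers. Their H2-DMa stood at 4.55 to 5.38%, above the markers in 5 of 5 libraries, so for H2-DMa a comparison with T cells sets 2 levels side by side and T cells are no background. None of the 8 macrophage markers was at 0 in any of these gates, and the part of free RNA in the endothelial and fibroblast levels was not tested. Barcodes with at least 3 distinct macrophage markers were left out of these gates. That rule holds the marker percentage down and uses no class II gene, so a class II percentage above it is in part built in. The markers also do not track RNA of dendritic cells and B cells, which hold class II genes.

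Class II chain UMIs were also counted per barcode. After thinning every barcode to 1000 UMIs, 38.1, 11.8, 14.8, 60.7 and 30.5% of endothelial barcodes had at least 1 UMI of H2-Aa, H2-Ab1 or H2-Eb1, against 23.7, 5.22, 8.28, 36.4 and 15.6% of T cells and 27.7, 6.82, 23.8, 59.1 and 20.6% of the 21 to 47 mural barcodes. Of the 17 to 51 neutrophil barcodes, 57.7, 88.9, 76.5, 41.2 and 60.9% had no such UMI, against 61.9, 88.2, 85.2, 39.3 and 69.5% of endothelial barcodes. Neutrophils thus had the higher share in control replicate 1 and disease replicates 3 and 5, and endothelial cells in control replicate 2 and disease replicate 4. Median depth before thinning was 2372 to 3021 UMIs in endothelial cells, 3737 to 4592 in T cells and 2410 to 4136 in mural cells. The endothelial share was above that of T cells in 5 of 5 libraries by 6.54 to 24.3 points (exact sign-flip test, p = 0.0625, adjusted 0.167 over 40 comparisons), and above that of mural cells in 4 of 5 (p = 0.3125, adjusted 0.431). The mean share was 24.9 ± 18.6% (SD, n = 2) in control and 35.4 ± 23.3% (n = 3) in disease endothelial cells (exact permutation test, two-sided, p = 0.7), and 12.6 ± 9.75% against 18.4 ± 15.6% in fibroblasts (p = 0.9, exact). In fibroblasts the share was 19.5, 5.69, 5.66, 35.8 and 13.8%, above T cells in 1 of 5 libraries.

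Barcodes with at least 5 classical chain UMIs of 1000 were more restricted. They made up 1.12, 0.315, 0.183, 7.40 and 2.19% of endothelial barcodes, which is 26, 7, 4, 127 and 59 barcodes, and the 95% Wilson interval in disease replicate 4 was 6.25 to 8.73%, covering counting error only. T cells had 0.179, 0, 0, 0.405 and 0%, and no mural barcode reached 5, which with so few barcodes allows a share of up to 6.38 to 14.3%. The endothelial share was above that of T cells in 5 of 5 libraries by 0.183 to 6.99 points (exact sign-flip test, p = 0.0625, adjusted 0.167). Fibroblasts had 0.0798, 0.0849, 0.0596, 1.58 and 0.332%, or 2, 1, 1, 27 and 6 barcodes. Before thinning, 25.02 to 83.3% of endothelial and 17.4 to 80.0% of fibroblast barcodes had at least 1 such UMI. T cells had 17.2 to 76.4% and mural barcodes 19.1 to 73.1%. Without thinning, endothelial cells were above T cells in 5 of 5 libraries, by a mean of 5.01 points. Fibroblasts were above T cells in 3 of 5, by a mean of 0.143 points over all 5.

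**Figure D3:**
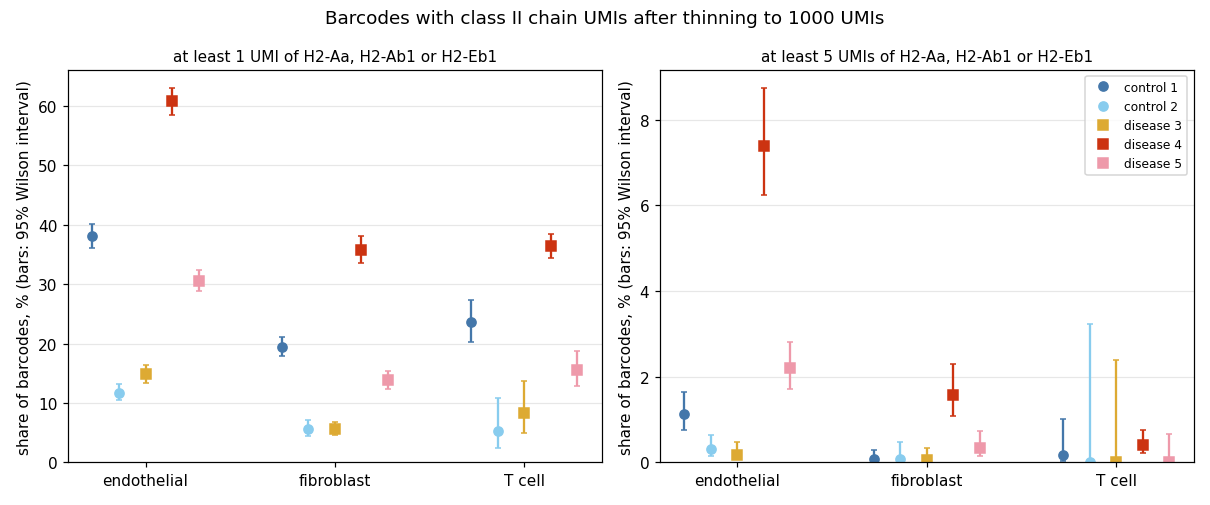
Share of endothelial, fibroblast and T cell barcodes with at least 1 UMI (left) or at least 5 UMIs (right) of H2-Aa, H2-Ab1 or H2-Eb1 after thinning to 1000 UMIs, 1 point per library with its 95% Wilson interval. On the right, disease replicate 4 has 7.40% of its endothelial barcodes at 5 or more UMIs, while T cells are at or under 0.405% in all 5 libraries.

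Between genotypes, none of the 7 genes was called in any gate by edgeR's quasi-likelihood test, none had an unadjusted p under 0.05 there, and DESeq2 called none either. In macrophages the log2 fold changes of disease over control were 0.55 ± 0.376 (SE) for H2-Aa, 0.59 ± 0.391 for H2-Ab1, 0.57 ± 0.425 for H2-Eb1, 0.57 ± 0.404 for Cd74, 0.55 ± 0.337 for H2-DMa, 0.63 ± 0.390 for H2-DMb1 and 0.68 ± 0.434 for Ciita, with a lowest adjusted p of 0.403 (edgeR). In this gate 7.29% of 10511 tested genes were called, nearly all of them lower in disease (7.25% against 0.0381% higher). The libraries of the genotypes overlapped for all 7 genes, with disease replicate 3 below control replicate 1, whereas 39.9% of all tested genes had no overlap. Disease replicate 4 alone was 1.51 to 2.10 times the highest other library. The median log2 fold change of the 7 genes was 0.57, against 0.02 for all tested genes, and was 0.15 without disease replicate 4 and 0.91 without control replicate 1.

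In B cells the log2 fold changes were 0.25 ± 0.107 (SE) for H2-Aa, 0.21 ± 0.111 for H2-Ab1, 0.26 ± 0.117 for H2-Eb1, 0.22 ± 0.106 for Cd74, 0.26 ± 0.165 for H2-DMa, 0.71 ± 0.337 for H2-DMb1 and 0.12 ± 0.342 for Ciita, with a lowest adjusted p of 0.237 (edgeR; 7.92% of 4166 tested genes called). For H2-Aa, H2-DMa and H2-DMb1 all 3 disease libraries were above both control libraries, although for H2-Aa the gap was only that between 6956 and 7086 CPM. That pattern, disease higher without overlap, was found in 18.8% of all tested genes in B cells, and a lack of overlap in either direction in 41.5%. Without disease replicate 4 the median of the 7 log2 fold changes was 0.19 in place of 0.25.

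In dendritic barcodes no test was made as designed, since control replicate 2 had 8 barcodes and left a single control library. With all 5 libraries, a choice made after seeing the data, none of the 7 genes was called, the lowest adjusted p was 0.537 (edgeR; 2.42% of 5089 genes called) and the median log2 fold change was -0.02. Control replicate 2 was the highest library for H2-Aa, H2-Ab1, H2-Eb1 and Cd74. Ciita alone did not overlap between the genotypes, with 36.4 and 21.9 CPM in the control (the latter from the 8 barcodes) and 45.5, 74.95 and 42.6 in the disease libraries. In this gate 17.1% of all tested genes were higher in disease without overlap.

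Endothelial cells and fibroblasts had the widest spread between libraries. In endothelial cells the log2 fold changes of disease over control were 1.10 ± 1.01 (SE) for H2-Aa, 1.10 ± 0.930 for H2-Ab1, 1.03 ± 1.07 for H2-Eb1, 1.41 ± 1.12 for Cd74, 1.29 ± 1.02 for H2-DMa, 0.94 ± 0.950 for H2-DMb1 and 1.99 ± 1.14 for Ciita, with a lowest adjusted p of 0.333 (edgeR; 11.7% of 12291 genes called). Ciita in this gate was at 2.38, 1.21, 0.821, 17.01 and 5.88 CPM, so that disease replicate 3 was the lowest library and disease replicate 4 the highest. Fibroblasts had log2 fold changes from 0.95 ± 1.07 for H2-Aa to 1.79 ± 1.06 for H2-DMa, with a lowest adjusted p of 0.325 (edgeR; 13.0% of 13065 genes called), and Ciita, with 7, 1, 0, 25 and 5 UMIs, was not tested. All tested members overlapped between the genotypes in both gates, where 47.0 and 48.9% of all tested genes did not. The result rests on disease replicate 4, whose level was 2.65 to 3.49 times the highest other library in endothelial cells and 2.41 to 5.58 times in fibroblasts. Without it the median log2 fold change went from 1.10 to -0.016 in endothelial cells and from 1.16 to 0.05 in fibroblasts. Without control replicate 1 it was 2.11 and 2.82. In barcodes without a UMI of any of 45 leukocyte genes the medians were 0.83 and 0.79.

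**Figure D4:**
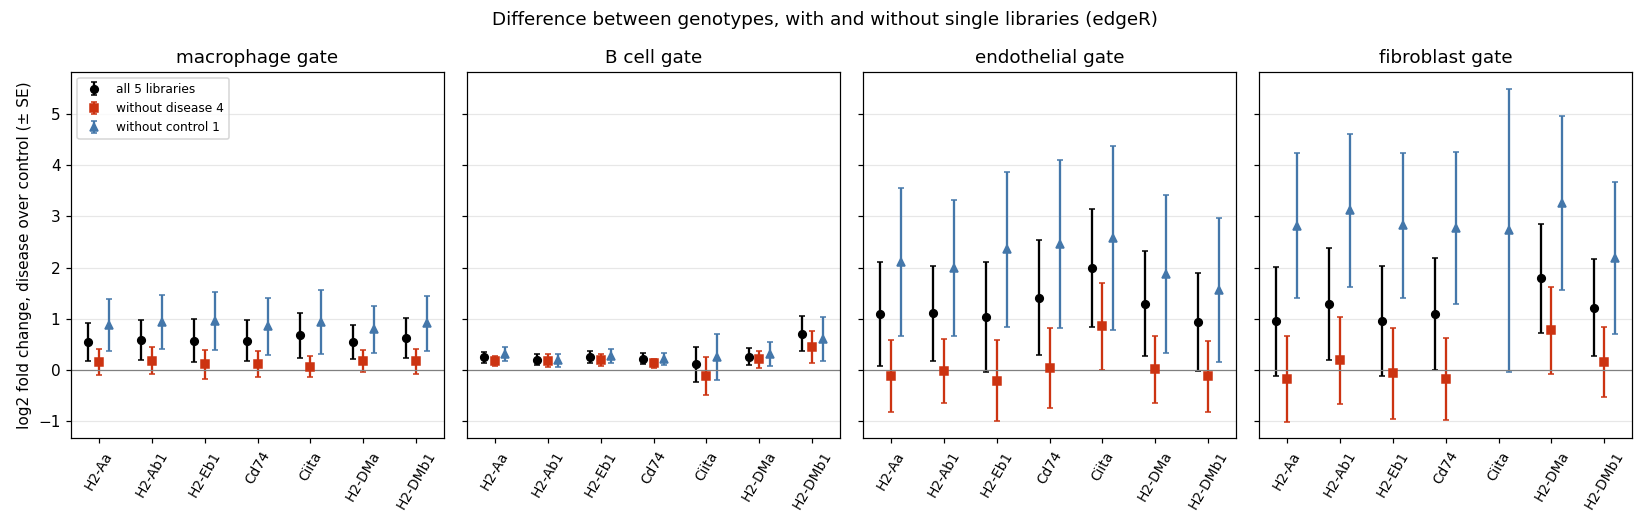
Log2 fold change of disease over control for the 7 genes in each tested gate (points with bars of 1 SE, edgeR), with all libraries, without disease replicate 4 and without control replicate 1. Endothelial values lie between 0.94 and 1.99 with all libraries and between -0.21 and 0.85 without disease replicate 4.

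Whether the genotype difference itself varied between classes was tested as an interaction with the library as a block over 6 pairs of the macrophage, B cell, endothelial and fibroblast gates. edgeR called 7 such differences, all of them smaller in B cells. Against endothelial cells these were H2-Ab1 (-0.72 ± 0.185 (SE), adjusted p = 0.0416, edgeR) and Cd74 (-0.84 ± 0.139, adjusted p = 4.58e-06), in a comparison that called 0.268% of all genes. Against fibroblasts they were H2-Aa (-0.85), H2-Ab1 (-1.17), H2-Eb1 (-0.85), Cd74 (-0.90) and H2-DMa (-1.50), with adjusted p from 3.07e-05 for Cd74 to 0.0221 for H2-Eb1 (edgeR; 0.334% of all genes called). In the other 4 pairs of gates none of the 7 genes was called, and 0.0249 to 0.290% of all genes were. For macrophages these were 0.0249% against endothelial cells, 0.0604% against B cells and 0.0644% against fibroblasts. Effects on all 7 genes were smaller in macrophages too than in endothelial cells and fibroblasts, with wider errors. For Cd74 they were -0.55 ± 0.590 (SE) and -0.42 ± 0.567. The prior degrees of freedom in edgeR set how far a gene's spread is pooled with that of others. They were infinite in the pairs with calls and 8.31 and 6.97 in these macrophage pairs. The library spread was wider than the errors of the 7 calls. For the log2 ratio of B cell to endothelial or fibroblast level the genotypes overlapped in all 7 cases, and an exact permutation test of genotype over the 5 libraries, added after seeing the data, gave p = 0.4 to 0.7, where 0.1 is the smallest possible. Without disease replicate 4 edgeR called 0 of them, and the mean differences of these log2 ratios lay between -0.73 and 0.07.

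Within the macrophage gate the class II genes were higher in barcodes with Ccr2 and no resident gene than in those with resident genes and no Ccr2. Barcodes with Ccr2, the chemokine receptor of monocyte-derived cells, and no UMI of Lyve1, Timd4 or Folr2, genes of resident macrophages, numbered 363, and those with a resident gene and no Ccr2 numbered 2081. H2-Aa was at 14589, 13233, 14607, 16949 and 17678 CPM in the Ccr2 barcodes and at 8803, 4774, 5923, 14884 and 7348 in the resident-gene barcodes. The Ccr2 barcodes were higher in every library, by the smallest margin in disease replicate 4 (log2 ratio 0.19). Mean log2 ratios were 0.99 for H2-Aa, 1.02 for H2-Ab1, 1.15 for H2-Eb1, 1.03 for Cd74, 0.76 for H2-DMa and 1.09 for H2-DMb1, each in 5 of 5 libraries (exact sign-flip test, p = 0.0625, adjusted 0.116 over 26 comparisons). Of all genes of at least 10 CPM on average, 9.41% were higher in the Ccr2 barcodes in 5 of 5 libraries, a share added after seeing the data. The Ccr2 barcodes had a median of 7584 UMIs and the resident-gene barcodes 5705. Ciita was higher in 4 of 5 libraries, with a mean of 0.41 (exact sign-flip p = 0.188). In disease replicate 4 the resident-gene barcodes had 38509 CPM of the 3 classical chains, against 11782 to 22373 in the other libraries, while the Ccr2 barcodes had 46389 against 34673 to 47393. Ccr2 barcodes made up 8.44, 6.55, 5.51, 15.4 and 10.7% of the gate. Another 135 barcodes had both Ccr2 and a resident gene, and 982 had neither, with a median of 2962 UMIs. H2-Aa over all libraries was at 16077 CPM with both and 12851 with neither, against 16120 in the Ccr2 and 9321 in the resident-gene barcodes. In disease replicate 4 barcodes with neither had 17217 CPM, above the Ccr2 barcodes.

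Macrophages also differed among themselves in how many class II UMIs each held. After thinning to 1000 UMIs the median macrophage had 24, 10, 15, 36 and 17 classical chain UMIs, and 8.69, 20.7, 23.5, 6.52 and 23.1% had 0. B cells were uniform, with medians of 17 to 21 and 0 to 2.07% at 0, and dendritic barcodes had medians of 33 to 45. Dendritic barcodes were divided into 66 with only Xcr1 or Clec9a, genes of type 1 conventional cells, 15 with only Cd209a, a gene of type 2 cells, 90 with Ccr7, Fscn1 or Ccl22, genes of mature migratory cells, and 12 others. H2-Aa over all libraries was at 16006, 18566, 16912 and 15679 CPM in them. Their median depth was 14594, 9767, 13697 and 14473 UMIs, above the 3366 to 4540 of all retained barcodes, and the part of undetected doublets in this was not tested.

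Cxcl9 and Cxcl10, chemokines induced by interferon, served to divide endothelial cells and fibroblasts. Endothelial barcodes with a UMI of either had 559, 149, 127, 2169 and 825 CPM of the classical chains, against 498, 171, 157, 1065 and 333 in those without. The barcodes with the chemokines were higher in control replicate 1 and in disease replicates 4 and 5, and lower in the other 2 libraries. Their macrophage markers were lower in all 5 libraries, at 224, 89.9, 122, 307 and 159 CPM against 297, 116, 156, 389 and 193. A barcode of this gate cannot hold 3 or more distinct macrophage markers, whatever its depth. The chemokine barcodes were the deeper ones, with a median of 3114.5 against 2480 UMIs over all libraries. The part of depth in their lower markers was not tested. Their sum of Ptprc, Tyrobp, Fcer1g, Cd52 and Coro1a, genes of leukocytes in general, was lower in 3 libraries and higher in control replicate 2 and disease replicate 3 (126, 61.4, 106, 231 and 74.9 CPM against 171, 46.4, 89.8, 310 and 96.4). H2-DMb1 was higher in them in 5 of 5 libraries, by a mean log2 ratio of 1.18 (exact sign-flip test, p = 0.0625, adjusted 0.116), as were 6.05% of all genes of at least 10 CPM on average, and H2-DMa and Cd74 in 4 of 5. Ciita was higher in them in 3 of 5 libraries, with a mean log2 ratio of 0.65 (exact sign-flip test, p = 0.438), and they held 8 of 19, 2 of 9, 1 of 6, 66 of 85 and 38 of 49 Ciita UMIs of the gate in the 5 libraries.

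In fibroblasts the classical chains were at 272, 33.4, 101, 822 and 603 CPM with the chemokines and 225, 39.2, 65.9, 421 and 128 without. H2-DMb1 was again higher in 5 of 5 libraries (mean log2 ratio 1.5, exact sign-flip p = 0.0625, adjusted 0.116), as were 4.58% of all such genes, and the chemokine barcodes held 1 of 7 and 0 of 1 Ciita UMIs in control replicates 1 and 2, and 22 of 25 and 3 of 5 in disease replicates 4 and 5. Macrophage markers were lower in them in all 5 libraries, for example at 158 against 206 CPM in disease replicate 4. The same limit on macrophage markers applied in this gate, and the chemokine barcodes were again deeper, with a median of 6511 against 5440 UMIs. T cells had 198, 113, 114, 633 and 151 CPM of the chains with the chemokines, from 43, 3, 8, 384 and 44 barcodes, and 224, 39.9, 84.4, 391 and 140 without, so that they were higher with them in 4 of 5 libraries. In macrophages, 6 of the 7 genes were higher with the chemokines in 5 of 5 libraries, by mean log2 ratios of 0.51 to 0.72 (exact sign-flip test, p = 0.0625, adjusted 0.116), and Ciita in 4 of 5 (0.23). Of all genes of at least 10 CPM on average, 5.73% were higher in 5 of 5 libraries there, and the chemokine barcodes were deeper, with a median of 6775.5 against 4798 UMIs. Chemokine barcodes made up 21.2, 10.5, 15.0, 55.3 and 30.1% of macrophages.

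**Figure D5:**
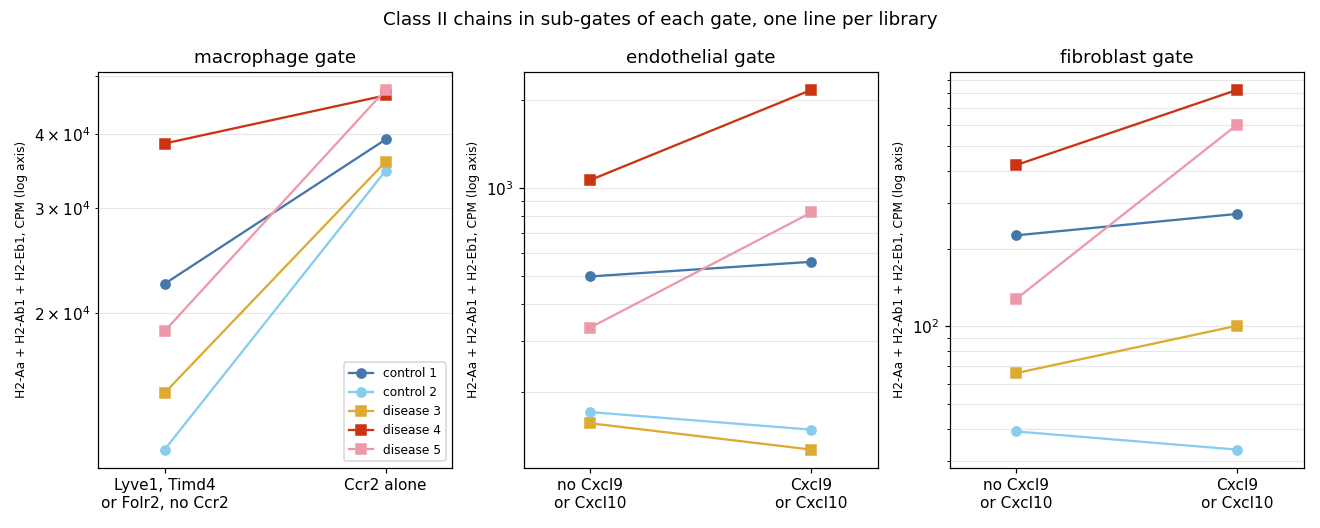
Summed level of H2-Aa, H2-Ab1 and H2-Eb1 in CPM (log axis) in sub-gates of macrophages (by Ccr2 and resident genes) and of endothelial cells and fibroblasts (by Cxcl9 or Cxcl10), with 1 line per library. In macrophages all 5 lines are higher in the Ccr2 barcodes, whereas in endothelial cells 3 libraries are higher and 2 are lower with Cxcl9 or Cxcl10.

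Of 28 other genes of the pathway, from the lists of accessory chains, processing, costimulation, regulators and interferon-gamma signalling, 25 were in the files, and 19 to 24 were tested in each gate. edgeR called 3 of 22 lower and 0 higher in endothelial cells, 3 of 21 lower and 1 higher in fibroblasts, 2 of 24 lower in macrophages, 2 of 19 lower in B cells and, with all 5 libraries, 1 of 20 lower in dendritic barcodes, against the 11.4, 12.6, 7.25, 7.75 and 2.38% of all tested genes called lower and the 0.413% called higher in fibroblasts. No accessory chain, protease or class II gene was among them. Ifngr2, the second chain of the interferon-gamma receptor, was at 106 and 97.1 CPM in control and 24.5, 28.9 and 23.9 in disease macrophages. Its log2 fold change was -1.88 in macrophages (adjusted p = 0.00237, edgeR), -1.90 in endothelial cells (adjusted p = 0.00106) and -1.92 in fibroblasts (adjusted p = 0.00122). The genotypes did not overlap, as was so for 39.9, 47.0 and 48.9% of all tested genes in these gates. The 8 alternatives run for this list were DESeq2, no low-count filter, the GC trend removed and leaving out each of the 5 libraries. Leaving out a control replicate left 1 control library. In these gates the Ifngr2 calls held in each alternative with both control libraries. In dendritic barcodes it was at 94.3, 98.7, 12.4, 14.6 and 27.3 CPM (-2.31, adjusted p = 0.0333, edgeR), and the call held in 3 of 8 alternatives. In B cells Ifngr2 was not called (-2.21, adjusted p = 0.0797, edgeR). Nfyc, a subunit of the factor that binds the Y box, was at 36.3 and 37.2 in control and 15.4, 13.5 and 14.8 in disease fibroblasts. It was lower in disease by -1.13 in macrophages (adjusted p = 0.0146, edgeR), -1.84 in B cells (adjusted p = 0.0155), -1.39 in endothelial cells (adjusted p = 0.00625) and -1.37 in fibroblasts (adjusted p = 0.00131), and its calls held in 8 of 8 alternatives in endothelial cells and fibroblasts and in 5 of 8 in the other gates.

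The other calls were less stable. Socs1, a feedback inhibitor of interferon-gamma signalling, was lower in disease in B cells (-2.91, adjusted p = 0.0256, edgeR), endothelial cells (-1.39, adjusted p = 0.0494) and fibroblasts (-1.49, adjusted p = 0.0133), and was not called in any of them once a trend on the GC content of the transcript start was removed (-1.79, -1.05 and -1.06, adjusted p = 0.115, 0.151 and 0.0604, edgeR). The log2 fold change was below 0 in every alternative that gave a value, from -3.24 to -1.79 in B cells, -1.75 to -1.05 in endothelial cells and -1.75 to -1.06 in fibroblasts, and the call held in 3 of 6, 3 of 8 and 4 of 8 of them. Cd80, a costimulatory ligand, was higher in disease fibroblasts (0.82, adjusted p = 0.0472, edgeR) and held in 2 of 8 alternatives. In macrophages Cd40, a costimulatory receptor, at 60.7, 43.0, 46.1, 211 and 88.1 CPM, and Ctss, the protease that trims the invariant chain, at 1616, 1033, 1491, 3336 and 1853 CPM, were not called (adjusted p = 0.332 and 0.335, edgeR). Both had disease replicate 4 as the highest library, as had the 7 class II genes. The ligand Ifng in T cells was at 337, 42.5, 229, 417 and 311 CPM.

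Across the 25 sums of 5 gates in 5 libraries, the genes whose log2 level (pseudocount of 1) was most like the mean of H2-Aa, H2-Ab1, H2-Eb1 and Cd74 among 6095 genes were Ptprc (Pearson r = 0.990), Cd52 (0.990), Lcp1 (0.988), Cd86 (0.987), Laptm5 (0.986) and Ncf4 (0.983). All 6 are genes of leukocytes. Among the other members H2-DMa had r = 0.993, Ciita 0.967 and H2-DMb1 0.915. These values describe sums that share libraries and depth, with gates as the main source of variation, and carry no test.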

How the data were processed

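The authors deposited, for each of the 5 libraries, a matrix of UMI counts per gene and barcode. Per the file headers these counts came from Cell Ranger 3.1.0. The submitters' processing notes name Cell Ranger 3 and Seurat 3, and the rule for calling cells is not given in the sources used here. Barcodes under 500 UMIs or 200 genes, or over 10% mitochondrial UMIs, were dropped (12.4 to 32.5% per library). Doublets were called per library with Scrublet in scanpy 1.11.5 (0.8% per 1000 cells) and 1110 were removed; in control replicate 2 it marked 4 barcodes (0.0716%) and did not work. Gates needed at least 3 distinct markers of 8 with a UMI (macrophage, endothelial, fibroblast, mural), at least 3 of 6 (neutrophil) or at least 2 of 8 to 10 (dendritic, B cell, T cell), and barcodes passing several gates were left out (in an added alternative, chosen after seeing the data, those with a gate at least 2 times better supported took that gate). UMIs were summed per gate and library, filtered with filterByExpr, normalised with TMM and tested with edgeR 4.0.16 (quasi-likelihood, R 4.3.3) at an adjusted p under 0.05 (Benjamini-Hochberg over all genes tested). DESeq2 1.42.0 was an alternative. The fits were also run on simulated data, and the outcome is not reported here. Single values were compared with exact permutation or sign-flip tests over libraries (scipy 1.17.1). Alternatives also covered the low-count filter, 25% mitochondrial UMIs, 1 more distinct marker, doublets kept, a GC trend, leukocyte-marker-free barcodes, thinning to 2000 UMIs and leaving out each library. The genes named are the 7 members, the pathway lists, the targeted genes, the genes that define sub-gates and marker lists and the 6 genes of most similar pattern. Values of 1 gene of the pathway lists are not reported here. The members and lists were chosen with earlier results of these data known.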

Additional observations from a re-analysis of the deposited data

Results flagged for a closer look

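Differences in the genotype effect between cell classes, tested as an interaction by edgeR with the library as a block, were the only results that met a rule for a closer look. In B cells the log2 fold change of disease over control was smaller than in endothelial cells by -0.72 for H2-Ab1 and -0.84 for Cd74. It was smaller than in fibroblasts by -0.85 for H2-Aa, -1.17 for H2-Ab1, -0.85 for H2-Eb1, -0.90 for Cd74 and -1.50 for H2-DMa. The exact permutation test over libraries gave p = 0.4 to 0.7 for these 7 (0.881 to 0.899 after adjustment over 91 comparisons), and all 7 overlapped between the genotypes.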

How the results depend on the processing

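No paired analysis was possible because the replicate numbers 1 to 5 are not shared between the genotypes. In place of 7 interaction calls there were 11 without disease replicate 3, 0 without disease replicate 4 and 2 without disease replicate 5. Leaving out a control replicate leaves a single control library, so the calls of those fits are not given. The difference in the share of barcodes with a classical chain UMI was 10.4 points in endothelial cells and 5.84 in fibroblasts. When each library was left out in turn, it ranged from -2.72 to 23.6 and from -2.86 to 12.7. Log2 fold changes that turned were those of Ciita in B cells (-0.11 to 0.26), of H2-Aa (-0.12 to 2.11), H2-Ab1 (-0.016 to 2.00), H2-Eb1 (-0.21 to 2.35) and H2-DMb1 (-0.12 to 1.56) in endothelial cells, with the median there (-0.016 to 2.11), and of H2-Aa (-0.17 to 2.82), H2-Eb1 (-0.058 to 2.82) and Cd74 (-0.17 to 2.77) in fibroblasts. Each endothelial and fibroblast value turned without disease replicate 4, and Ciita in B cells turned without disease replicate 4 (-0.11) or control replicate 2 (-0.029). The shares turned without disease replicate 4 (-2.24 and -2.86) or control replicate 2 (-2.72 and -1.06). The cause was not tested. No other alternative run turned a member's log2 fold change in the macrophage, B cell, endothelial and fibroblast gates (202 values), and none called a member in any gate. In dendritic barcodes the median of the 7 log2 fold changes, -0.02 with all libraries, lay between -0.27 and 0.18 when 1 library was left out. With 2 control and 3 disease libraries, their number limits the precision of every genotype comparison, and in the dendritic gate leaving out libraries was limited by the 8 barcodes of control replicate 2.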

Other observations

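A few endothelial barcodes carried H2-DMb2, whose level was far higher in B cells and dendritic barcodes. There were 10, 6, 3, 52 and 19 of them in the 5 libraries, in the order used above, with 10, 7, 3, 101 and 25 UMIs. These barcodes were singled out after their values were seen, so the values are a description. In disease replicate 4 they had H2-Aa at 3100 CPM, from 734 UMIs, Ciita at 88.7 CPM, from 21 UMIs, and Cxcl9 at 5760 CPM against 1133 in the whole endothelial gate. Their endothelial markers were at 5942 CPM, and they held 1 UMI of B cell markers and 40 UMIs of dendritic markers. These came from 236790 UMIs in 52 barcodes, in a gate with a median of 2187 UMIs per barcode. In the disease libraries the whole endothelial gate had dendritic markers at 143 to 295 CPM and B cell markers at 2.76 to 15.4 CPM. In disease replicate 5 they had H2-Aa at 2141 CPM and Cxcl9 at 3072 CPM against 398 in the gate, with 0 UMIs of B cell markers and 25 of dendritic markers. The few such barcodes of control replicate 1 had H2-Aa at 783 CPM and Cxcl9 at 1101 CPM against 252 in the gate, and those of control replicate 2 had 590 CPM and 36.9 against 131. The 3 barcodes of disease replicate 3 had 0 UMIs of both.

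Barcodes that passed several gates, which were left out of the gates, held 38.8, 17.1, 33.5, 51.8 and 37.3% of all UMIs of the 7 genes among retained barcodes, against 49.7, 55.3, 49.0, 36.8 and 43.2% in the macrophage gate. Over all retained barcodes the 7 genes together stood at 14540, 7109, 8587, 36151 and 13935 CPM.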
